A study of Arabidopsis thaliana with 12 samples.

Results

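Transcript levels in the Arabidopsis thaliana mutant tic-2 were compared with those of its wild type Col-0 in seedlings harvested at postdusk (ZT 12, counted in hours from lights-on). The comparison used 6 of the 12 RNA sequencing libraries of the series, 3 of tic-2 and 3 of Col-0, and the other 6 held the same genotypes at predawn (ZT 0). The libraries were chosen by the genotype and time that the column names of the deposited table spell out. For Col-0 postdusk and tic-2 predawn these names conflict with the labels, since the description of each of those 6 samples, all 3 Col-0 postdusk samples among them, carries a column name of the other group. The labels give Col-0 as the ecotype, and the mutant, of TIME FOR COFFEE (TIC), is given as tic-2 -/-. Both genotypes were whole seedlings, 10 days old, grown at 22 °C in conditions that the labels call LD, on MS medium with 3% sucrose, and no further treatment is given for either. The labels do not state what the tic-2 mutation is, and the mutant is represented by this single allele. The series description calls the 3 libraries of a group biological replicates. The series title concerns TIC, growth of the hypocotyl, the embryonic stem, and signalling by phytochrome A, a receptor of far-red light.

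The plant circadian clock is a network of repressors that take turns through the day. CCA1 and LHY, MYB factors of the morning, repress genes of the evening, and the pseudo-response regulators and an evening complex of ELF3, ELF4 and LUX repress the morning genes in turn. TIC encodes a nuclear protein that is needed for normal timing and amplitude of this network in Arabidopsis. Its outputs include genes for light harvesting, starch turnover, cold response and growth. In whole seedlings, less RNA in each cell and fewer cells of a type cannot be told apart.

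Clock factors bind short promoter sequences, and 4 promoters of genes on which the results turn are printed here as examples that hold such letters. The pairs of gene and motif were picked by hand. The same letters also stood before genes that changed the other way or were not called, as described below. CCA1 (AT2G46830, plus strand, promoter chr2:19245341-19245590) and LHY (AT1G01060, minus strand, chr1:37872-38121) rose in tic-2. GRP7 (AT2G21660, minus strand, chr2:9266558-9266807) and FKF1 (AT1G68050, plus strand, chr1:25508389-25508638) fell. Each sequence is the 250 bases before the annotated start in RefSeq TAIR10.1, written 5′ to 3′ on the strand of the gene. Capitals mark a G-box (CACGTG) in CCA1 and LHY, 193 and 80 bases before the start, and evening elements in GRP7 and FKF1. The evening element is AAAATATCT or, read on the other strand, AGATATTTT. GRP7 holds 3 of them, 76, 55 and 31 bases before its start, and FKF1 holds 1 at 186 bases.
CCA1: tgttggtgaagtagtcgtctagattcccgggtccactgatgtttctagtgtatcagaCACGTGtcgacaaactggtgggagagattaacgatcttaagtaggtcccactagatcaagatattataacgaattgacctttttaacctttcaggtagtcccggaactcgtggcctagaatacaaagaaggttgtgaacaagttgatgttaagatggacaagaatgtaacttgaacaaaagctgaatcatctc
LHY: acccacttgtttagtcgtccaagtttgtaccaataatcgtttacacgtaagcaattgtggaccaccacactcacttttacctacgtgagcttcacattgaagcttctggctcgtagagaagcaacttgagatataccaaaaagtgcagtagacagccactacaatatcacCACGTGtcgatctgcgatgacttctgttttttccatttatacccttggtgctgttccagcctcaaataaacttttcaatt
GRP7: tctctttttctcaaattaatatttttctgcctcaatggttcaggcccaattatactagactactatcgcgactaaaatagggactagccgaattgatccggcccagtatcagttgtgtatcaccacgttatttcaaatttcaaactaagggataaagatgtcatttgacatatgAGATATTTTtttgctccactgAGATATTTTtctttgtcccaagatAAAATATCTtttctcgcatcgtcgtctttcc
FKF1: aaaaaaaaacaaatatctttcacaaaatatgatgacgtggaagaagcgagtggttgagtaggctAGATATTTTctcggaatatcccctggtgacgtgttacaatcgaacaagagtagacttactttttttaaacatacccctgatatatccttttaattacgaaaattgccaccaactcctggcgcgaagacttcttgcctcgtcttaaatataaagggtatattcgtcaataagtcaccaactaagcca

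Depth was between 19255016 and 21750335 reads per library, recovered from the steps of the deposited FPKM values (fragment numbers adjusted for the length of the gene and the depth of the library), so that 1 read in 1 kb of exons was worth 0.046 to 0.0519 FPKM. Replicates correlated across genes at 0.982 to 0.988 in Col-0 and at 0.971 to 0.990 in tic-2. The tic-2 library lettered C had the lowest limma array weight, 0.228, against 7.55 and 0.613 for tic-2 A and B. The next lowest weight was 0.248, for tic-2 predawn C. Among the postdusk libraries, tic-2 C held the highest levels of TIC, of the chaperone genes HSP70 and HSP90.1, and of COR47 and JAZ9. Without tic-2 postdusk C, 5080 genes differed in place of the 5686 found with it. Leaving out tic-2 postdusk A or B gave 4049 and 5191. The genotypes were separated by 3 genes chosen after their values were seen. AT5G24240 was at 0.0399 ± 0.0025 FPKM (SD, n = 3) in tic-2 and 15.3 ± 1.58 in Col-0, AT3G11960 at 0.0901 ± 0.0354 and 13.7 ± 0.452, and PAB5 at 8.05 ± 1.28 and 0.0842 ± 0.012. At predawn AT5G24240 was at 0.0809 ± 0.0182 FPKM in tic-2 and 13.2 ± 0.346 in Col-0, so that the difference was there at both times.

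TIC itself (AT3G22380, chromosome 3, 7912905 to 7919707, plus strand, TAIR10.1) was not called, and its levels overlapped between the genotypes. It was at 70.9, 62.2 and 106 FPKM in the tic-2 libraries A, B and C, and at 61.9, 57.5 and 63.1 FPKM in those of Col-0. The groups overlapped, and the high value of library C set most of the difference. The log2 fold change of 0.35 (SE 0.19) did not pass the test (limma adjusted p = 0.175), and it was 0.13 without library C. Because the lesion is not given, this gene-level value does not check the genotype label.

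A large share of the transcriptome differed at postdusk, and how many genes were lower depended on the scaling of the columns. limma, a linear model with moderated variances, was fitted to log2(FPKM + 1) of 19274 genes, and p-values were adjusted over all of them by the Benjamini-Hochberg method. At an adjusted p under 0.05, 5686 genes differed (29.5%), of which 1872 were higher (9.71%) and 3814 lower (19.8%) in tic-2. The median log2 fold change over all genes was -0.12, and medians of the single tic-2 libraries against the Col-0 mean were -0.12, -0.08 and -0.14. After median-of-ratios rescaling of the columns the median was -0.01, with 2490 genes higher (12.9%) and 1871 lower (9.71%). The share of higher genes among the calls moved from 32.9% to 57.1%. Rescaling removed 1943 of the lower calls, turned 0 of them higher and added 618 higher calls. Without Col-0 postdusk A, B or C the lower calls as deposited were 2458, 2471 and 2528.

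Genes are therefore described here as called only where the same direction passed under both scalings, which held for 1872 higher (9.71%) and 1871 lower genes (9.71%), and "rose" and "fell" refer to these. Among them the mean FPKM differed at least 2-fold for 535 higher and 392 lower genes, at least 4-fold for 83 and 77, and at least 10-fold for 29 and 17. On the deposited values the 3 tic-2 libraries lay wholly above or wholly below the 3 Col-0 libraries for 9015 genes (46.8%). These were 2751 above and 6264 below, on a scale where the median log2 fold change over all genes was -0.12. The separation was not counted after rescaling. Log2 fold changes are on the log2(FPKM + 1) scale, which understates changes of low genes, and folds are ratios of mean FPKM.

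Across 31 gene lists, the share of members called higher was largest in the morning clock, the B-box factors and light harvesting, and the share called lower was largest in starch breakdown. The lists were read against the 9.71% of all genes called in each direction. No list was tested as a set. Members and lists were chosen with earlier results of these data known, so the shares are not independent of that choice.

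**Figure D1:**
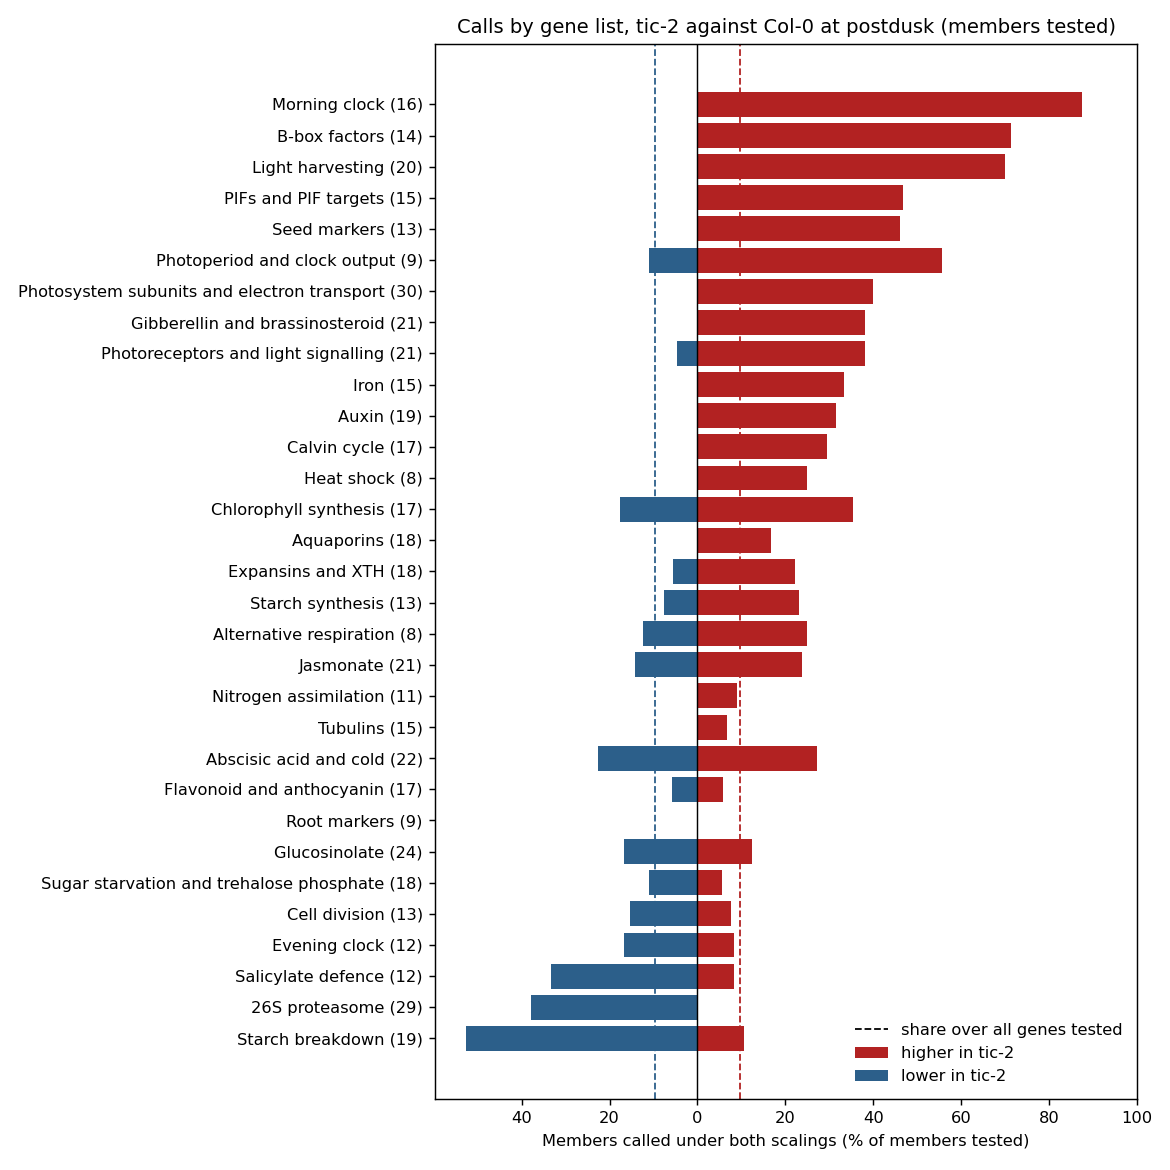
Percent of the tested members of each gene list (number in brackets) called higher (red, to the right) or lower (blue, to the left) in tic-2 at postdusk under both scalings. Dashed lines mark 9.71%, the share of all 19274 genes in each direction. Morning clock stands at the top with 14 of 16 higher, and starch breakdown at the bottom with 10 of 19 lower.

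Transcripts of morning clock genes were high at postdusk in tic-2. Of 16 morning clock genes, 14 rose and 0 fell, with a median log2 fold change of 1.53 as deposited and 1.62 after rescaling. CCA1 was at 60.1, 52.2 and 69.6 FPKM in tic-2 and at 0.761, 0.712 and 0.769 FPKM in Col-0. LHY was at 32.3, 29.4 and 32.7 FPKM in tic-2 and at 0.517, 0.465 and 0.466 FPKM in Col-0. For both genes every tic-2 library lay far above every Col-0 library. The means differed 81.1-fold for CCA1 (log2 fold change 5.13, SE 0.12, limma adjusted p = 1.85e-10) and 65.2-fold for LHY (4.45, SE 0.08, adjusted p = 2.35e-11).

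The REVEILLE factors are MYB proteins related to CCA1. RVE1, which links the clock to auxin, was at 28.6, 25.3 and 47.8 FPKM in tic-2 and at 2.26, 1.77 and 1.41 FPKM in Col-0. RVE8, an activator of evening genes, was at 24.6, 23.4 and 20.1 FPKM in tic-2 and at 1.47, 1.51 and 2.25 FPKM in Col-0. The log2 fold changes were 3.59 (SE 0.20, limma adjusted p = 9.00e-07) and 3.12 (SE 0.12, adjusted p = 1.91e-08), with no overlap between genotypes. RVE2, RVE4, RVE7 and ASG4 (also called RVE3) rose by less, 2.58-fold to 4.77-fold. AT4G01280 and AT5G52660, also of the REVEILLE family, were within 1.17-fold of Col-0 and were not called under both scalings, although AT4G01280 passed after rescaling (adjusted p = 0.0474).

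LNK proteins are coactivators that work with RVE8. LNK2 was at 46.4, 44.5 and 52.8 FPKM in tic-2 and at 5.25, 4.94 and 6.52 FPKM in Col-0, 8.60-fold apart (log2 fold change 2.90, SE 0.15, limma adjusted p = 3.37e-07). LNK3 and LNK4 rose 9.89-fold and 4.44-fold. LNK1 rose 2.12-fold, with tic-2 C highest at 35.1 FPKM, and lost its call without Col-0 B (adjusted p = 0.0639). Repressors of the morning genes rose too. PRR9 was at 3.38, 3.23 and 3.97 FPKM in tic-2 and at 0.331, 0.488 and 0.489 FPKM in Col-0, and PRR7 at 46.1, 44.7 and 61.4 FPKM and at 18.4, 17.1 and 23.8 FPKM. Both pseudo-response regulator genes were higher in every tic-2 library than in any of Col-0, 8.09-fold and 2.57-fold by the means.

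Evening clock genes stood near their Col-0 levels. Of 12 evening genes, BOA rose, ELF4 and FKF1 fell, and 9 were not called under both scalings, with a median log2 fold change of -0.14 as deposited and -0.02 after rescaling. FKF1, an F-box photoreceptor that helps set flowering by day length, was at 10.4, 9.32 and 7.13 FPKM in tic-2 and at 29.1, 28.4 and 35.9 FPKM in Col-0. ELF4, of the evening complex, was at 98.8, 115 and 62 FPKM in tic-2 and at 143, 174 and 169 FPKM in Col-0. Neither gene overlapped between genotypes. Col-0 stood 3.48-fold above tic-2 for FKF1 (log2 fold change -1.70, SE 0.13, limma adjusted p = 9.45e-06) and 1.77-fold for ELF4 (-0.85, SE 0.21, adjusted p = 0.011). BOA, a close relative of LUX, was at 11.8, 12.4 and 13.4 FPKM in tic-2 and at 7.2, 6.46 and 6.27 FPKM in Col-0, 1.89-fold higher.

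The partners of these genes gave smaller differences. ELF3 was at 43.3 ± 4.15 FPKM in tic-2 and 37.6 ± 1.87 in Col-0, and LUX at 26.3 ± 0.585 and 25.9 ± 4.2. TOC1, the pseudo-response regulator that represses CCA1 and LHY in the evening, was at 69.4, 67 and 96.7 FPKM in tic-2 and at 88.7, 92.6 and 84.2 FPKM in Col-0. GI, a partner of FKF1 and ZTL, was at 20, 17.3 and 24.6 FPKM in tic-2 and at 24, 23.4 and 31.5 FPKM in Col-0. Library C lay apart from A and B for TOC1, and without it TOC1 (log2 fold change -0.37, limma adjusted p = 0.00502), PRR5 (-0.35, 0.0316) and GI (-0.47, 0.0342) passed as lower. With it, TOC1 stood at -0.20 (SE 0.12, adjusted p = 0.211), PRR5 at -0.14 (SE 0.15, 0.505) and GI at -0.34 (SE 0.14, 0.0967). PRR3, LKP2, CHE and ZTL were within 1.17-fold of Col-0. ELF3 and ZTL passed as higher after rescaling alone (adjusted p = 0.0464 and 0.031).

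**Figure D2:**
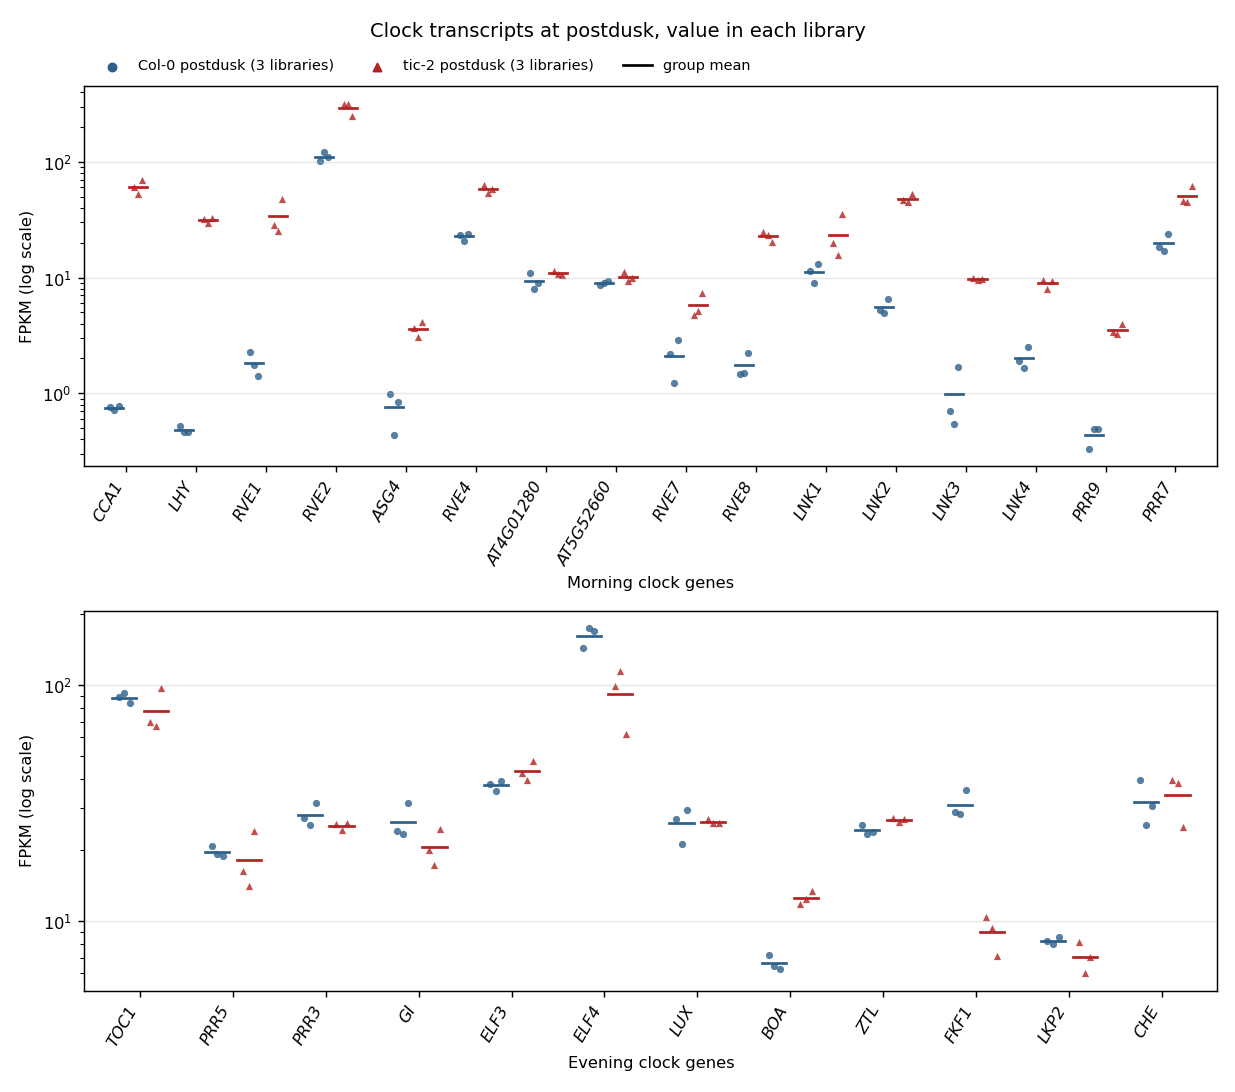
FPKM on a log axis of 16 morning and 12 evening clock genes at postdusk, 1 point per library (Col-0 circles, tic-2 triangles, 3 each) with bars at group means. In the upper panel tic-2 lies above Col-0 without overlap for 14 genes, with CCA1 at 60.6 against 0.748, and in the lower panel the genotypes lie close except for ELF4, BOA and FKF1.

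Genes of photoperiod timing and clock output rose more often than they fell. Of 9 tested, 5 rose and 1 fell (median log2 fold change 0.71 as deposited, 0.82 rescaled). The CYCLING DOF FACTOR genes encode repressors of the flowering gene CO and are targets of FKF1 for degradation. CDF1 was at 29, 28.7 and 33.7 FPKM in tic-2 and at 5.85, 4.18 and 7.93 FPKM in Col-0, 5.09-fold higher. CDF2 and CDF3 rose 3.33-fold and 1.69-fold, and COL2, a relative of CO, 2.45-fold. CO and FT, the flowering activators, were under the expression filter, at 0.353 and 0.167 FPKM in tic-2 and 0.406 and 0.36 in Col-0.

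GRP7, an RNA-binding protein gene that peaks in the evening, was the member that fell. It was at 916, 886 and 585 FPKM in tic-2 and at 2472, 2360 and 2865 FPKM in Col-0, so that Col-0 stood 3.22-fold above tic-2 (log2 fold change -1.71, SE 0.18, limma adjusted p = 7.73e-05). Its homologue GRP8 was at 354 ± 57.1 and 389 ± 51.2 FPKM and was not called. The catalase genes, whose products remove hydrogen peroxide, peak at different times. CAT2, the morning catalase, was at 779, 655 and 958 FPKM in tic-2 and at 225, 221 and 220 FPKM in Col-0, a 3.59-fold difference (log2 fold change 1.82, SE 0.13, adjusted p = 4.91e-06). CAT3, the evening catalase, was 1.22-fold higher and was not called.

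B-box zinc finger genes, whose products act in light signalling beside HY5 and COP1, rose in 10 of 14 cases and fell in 0 (median log2 fold change 1.3, 1.4 rescaled). BBX28 was at 39, 36.3 and 39.3 FPKM in tic-2 and at 4, 3.1 and 5.2 FPKM in Col-0. BBX29 was at 4.87, 5.86 and 4.91 FPKM in tic-2 and at 0.263, 0.216 and 0.519 FPKM in Col-0. These small B-box proteins are negative regulators of light responses, and their libraries were far apart, with mean ratios of 9.32 (log2 fold change 2.96, SE 0.16, limma adjusted p = 4.53e-07) and 15.7 (2.22, SE 0.13, adjusted p = 9.51e-07).

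Members with roles on either side of light signalling rose together. BBX24 and BBX25, which interfere with HY5, rose 2.29-fold and 5.99-fold, and BBX25 went to 26.8, 23.7 and 21.2 FPKM from 4.11, 2.78 and 5.07. BBX21, an activator of HY5, rose 1.64-fold. BBX18 and BBX19 rose 3.87-fold and 4.15-fold, and COL5, BBX31 and BBX32 were also called. The members that were not called were COL9, BBX20, BBX22 and BBX30, of which BBX30 was low, at 1.2 ± 0.48 FPKM in tic-2 and 0.259 ± 0.195 in Col-0 (adjusted p = 0.0553).

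PHYA, the receptor named in the series title, was at its Col-0 level at postdusk. It was at 22.7, 19.3 and 22.3 FPKM in tic-2 and at 21.9, 22.6 and 21.4 FPKM in Col-0 (log2 fold change -0.04, SE 0.12, limma adjusted p = 0.833). The groups overlapped, whereas at predawn PHYA was at 81.3 ± 13 FPKM in tic-2 and 33.4 ± 2.38 in Col-0. Of 21 photoreceptor and light signalling genes, 8 rose and 1 fell (median log2 fold change 0.24, 0.36 rescaled). The phytochrome gene that fell was PHYD, at 3.23, 3.41 and 3.47 FPKM in tic-2 and at 6.46, 7.07 and 6.51 FPKM in Col-0, 1.98-fold lower (log2 fold change -0.81, SE 0.14, adjusted p = 0.00181). PHYB, PHYC and PHYE were not called.

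Blue light receptors and the repressor complex of light signalling accounted for most of the genes that rose. PHOT2 and PHOT1, the phototropins, rose 1.75-fold and 1.64-fold, and CRY1, a cryptochrome, rose 1.43-fold, with CRY2 at 90.5 ± 13.4 and 90 ± 3.39 FPKM. SPA3, which acts with the ubiquitin ligase COP1, was at 29.7, 25.9 and 32.7 FPKM in tic-2 and at 18.4, 16.6 and 18.6 FPKM in Col-0, and SPA1 and SPA4 also rose. HYH, the bZIP partner of HY5, rose 2.53-fold, to 23.1, 26.9 and 33.7 FPKM from 9.39, 11.7 and 12. FHL, which carries phytochrome A into the nucleus with FHY1, rose 1.62-fold (limma adjusted p = 0.0368), and FHY1 was at 11.3 ± 1.49 and 11.1 ± 0.591 FPKM.

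PIF proteins are bHLH factors that promote growth in the dark and are degraded after phytochromes are activated. Of 15 PIF genes and PIF targets, 7 rose and 0 fell (median log2 fold change 0.53, 0.64 rescaled). UNE10, also called PIF8, was at 74.9, 68.2 and 77.1 FPKM in tic-2 and at 19.1, 18.3 and 19.8 FPKM in Col-0. PIF5 was at 57.7, 49.5 and 73.4 FPKM in tic-2 and at 30.6, 21.8 and 30.9 FPKM in Col-0. PIF4 was at 28.8, 23.5 and 39.1 FPKM in tic-2 and at 25.1, 16.6 and 23.8 FPKM in Col-0. The genotypes were apart for UNE10 (log2 fold change 1.89, SE 0.10, limma adjusted p = 4.41e-07) and PIF5 (1.09, SE 0.17, adjusted p = 0.000922) and overlapped for PIF4 (0.46, SE 0.18, adjusted p = 0.0794). PIF1 and PIF7 rose 1.79-fold and 1.5-fold.

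Among PIF targets the changes were small. ATHB2 and ATHB4, homeodomain genes of shade responses, rose 1.87-fold and 2.29-fold, and PIL1, a shade marker, rose 1.97-fold, to 2.3 ± 0.541 FPKM from 1.17 ± 0.156. HFR1, HAT1, HAT2, HAT3, PAR1 and PAR2 were not called.

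Of 19 auxin genes, 6 rose and 0 fell (median log2 fold change 0.29, 0.41 rescaled). IAA7, IAA14 and IAA16, which encode repressors of auxin response, rose 1.94-fold, 1.88-fold and 1.4-fold, and IAA7 was at 163, 118 and 148 FPKM in tic-2 and at 78.5, 64.7 and 78.4 FPKM in Col-0 (log2 fold change 0.94, SE 0.14, limma adjusted p = 0.000811). PIN3, an auxin exporter of tropic growth, rose 1.74-fold. IAA3 and IAA5, of the same repressor family, rose 1.52-fold and 3.98-fold, with IAA5 low at 1.53 ± 0.531 FPKM in tic-2 and 0.385 ± 0.0671 in Col-0. IAA29 was at 1.64 ± 0.778 and 1.73 ± 0.426 FPKM and GH3.3, an auxin-conjugating enzyme gene, at 2.41 ± 0.563 and 2.17 ± 0.316 FPKM, and neither was called.

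Of 21 gibberellin and brassinosteroid genes, 8 rose and 0 fell. ROT3, a cytochrome P450 of brassinosteroid synthesis, was at 16.2 ± 1.59 FPKM in tic-2 and 7.24 ± 1.31 in Col-0 (log2 fold change 1.07, SE 0.12, limma adjusted p = 0.000109). CPD and BR6OX2, of the same pathway, rose 1.44-fold and 1.29-fold, and so did BAS1, which inactivates brassinosteroids, 1.74-fold. BES1, a transcription factor of brassinosteroid response, was at 222, 194 and 258 FPKM in tic-2 and at 121, 106 and 97.1 FPKM in Col-0. Both factor genes of that response, BES1 and BZR1, rose, 2.08-fold and 1.3-fold. GID1B, a gibberellin receptor gene, rose 1.69-fold, and the other receptor genes GID1A and GID1C were within 1.04-fold of Col-0.

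Expansin and XTH genes, which loosen or rebuild the cell wall, rose in 4 of 18 cases and fell in 1. Over all genes 9.71% were called in each direction. EXPA8 was at 79.2, 50.6 and 78.6 FPKM in tic-2 and at 29.2, 18 and 22.6 FPKM in Col-0, 2.98-fold higher, and EXPA1, EXP3 and XTH17 also rose. XTH9 fell to 53.6, 86.9 and 45.1 FPKM from 114, 100 and 127. In the tubulin list 1 gene of 15, TUA1, rose, and 0 fell. At predawn 14 of those tubulin genes were higher in tic-2 on the deposited scale, where 13.1% of all genes were higher and 14.6% lower.

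Light harvesting genes, which encode the antenna proteins of the photosystems, rose in 14 of 20 cases and fell in 0 (median log2 fold change 0.75, 0.88 rescaled). Their summed level was between 17303 and 19158 FPKM in tic-2 and between 9395 and 11905 in Col-0, with no overlap. LHCB1.1 (AT1G29920) was at 335, 324 and 338 FPKM in tic-2 and at 76.1, 58 and 65.6 FPKM in Col-0, 5.0-fold higher (log2 fold change 2.31, SE 0.13, limma adjusted p = 9.51e-07). Its promoter (chr1:10475970-10476219, minus strand, TAIR10.1, 5′ to 3′) is shown for the CCA1-binding site (AAAAATCT, in capitals) 78 bases before the start, the kind of site through which CCA1 was first found. Those exact letters, the only form of the site counted, were in 3 of the 20 light harvesting promoters, 2 of genes that rose. The G-box and the LUX-binding site GATTCG or GATACG were in 5 each, 4 of genes that rose.
LHCB1.1: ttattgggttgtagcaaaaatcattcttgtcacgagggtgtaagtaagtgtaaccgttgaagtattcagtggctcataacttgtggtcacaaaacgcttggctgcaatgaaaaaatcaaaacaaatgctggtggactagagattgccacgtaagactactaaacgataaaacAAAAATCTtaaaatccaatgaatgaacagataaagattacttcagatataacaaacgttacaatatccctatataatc
LHCB2.1 and LHCB2.3 rose 4.56-fold and 4.78-fold, and LHCA4, an antenna gene of photosystem I, rose 2.56-fold. LHCB1.3, the member with the highest level, was at 5629, 4573 and 5750 FPKM in tic-2 and at 3474, 2329 and 2256 FPKM in Col-0. LHCA1, LHCA5, LHCA6, LHCB1.4, LHCB4.1 and LHCB4.3 were not called under both scalings. LHCB1 and LHCB2 copies are near identical in sequence, and their values as single genes are uncertain.

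Core subunits of the photosystems changed less than the antennae. Of 30 photosystem and electron transport genes, 12 rose and 0 fell (median log2 fold change 0.23, 0.35 rescaled). PSAD-2, of photosystem I, was at 418, 378 and 489 FPKM in tic-2 and at 238, 187 and 215 FPKM in Col-0, 2.01-fold higher (log2 fold change 1.0, SE 0.13, limma adjusted p = 0.000371), while its copy PSAD-1 was at 1055 ± 49.8 and 1052 ± 40.5 FPKM. PSAN rose 1.73-fold, PSBO1, of the oxygen-evolving complex, 1.57-fold, and PSBS, which acts in photoprotection, 1.56-fold. The calls of PSBO1 and PSBS ended without the filter on low genes (adjusted p = 0.0524) and after quantile normalization (adjusted p = 0.0591) respectively.

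Chlorophyll synthesis split by step and by gene copy, with 6 of 17 genes higher and 3 lower. HEMA1, the first committed enzyme, was at 144, 138 and 168 FPKM in tic-2 and at 66.8, 66.3 and 65.7 FPKM in Col-0, and CRD1, a cyclase subunit, was at 594, 553 and 623 FPKM and at 232, 192 and 214 FPKM. GUN5, a subunit of magnesium chelatase, rose 2.3-fold, CAO, which makes chlorophyll b, 2.52-fold, and PORB, a light-dependent reductase, 1.70-fold. By contrast GSA1, the next enzyme after HEMA1, fell to 47.2, 47.5 and 45.6 FPKM from 79.2, 72.8 and 72.8. CHLI2, of the chelatase, and PORC, a further reductase, fell as well, with Col-0 1.69-fold and 1.4-fold above tic-2.

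In the Calvin cycle, 5 of 17 genes rose and 0 fell. FBA1, a plastid aldolase, was at 1010, 1009 and 981 FPKM in tic-2 and at 354, 345 and 414 FPKM in Col-0, 2.69-fold higher (log2 fold change 1.43, SE 0.13, limma adjusted p = 2.60e-05). RCA, the activase of rubisco, was at 4374, 3981 and 4495 FPKM in tic-2 and at 1971, 1904 and 2354 FPKM in Col-0. Its log2 fold change of 1.05 was 0.58 after quantile normalization. FBA2 and RPE rose 1.54-fold and 1.35-fold, and PRK 1.31-fold, a call that ended after quantile normalization (adjusted p = 0.05). The rubisco small subunit genes RBCS1A, RBCS1B, RBCS2B and RBCS3B, near-identical copies in part, were not called under both scalings, with RBCS1A at 8410 ± 1490 and 8342 ± 153 FPKM.

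Starch breakdown, which feeds the plant at night, was the list with the largest share of members that fell. Of 19 genes, 10 fell and 2 rose (median log2 fold change -0.53, -0.40 rescaled). DPE1, the plastid disproportionating enzyme, was at 18.8, 18.8 and 20.7 FPKM in tic-2 and at 48.2, 46 and 44.5 FPKM in Col-0. DPE2, its cytosolic counterpart, was at 59.7, 56.6 and 64.8 FPKM in tic-2 and at 101, 106 and 114 FPKM in Col-0. Neither gene overlapped, with Col-0 2.38-fold (log2 fold change -1.21, SE 0.14, limma adjusted p = 0.000208) and 1.77-fold above tic-2 (-0.82, SE 0.11, adjusted p = 0.000516).

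The genes that fell spanned the pathway. SEX1 and PWD, the dikinases that phosphorylate starch granules at the start of breakdown, had Col-0 1.63-fold and 1.66-fold above tic-2. AMY3, an alpha-amylase, stood 1.94-fold lower, at 36.5, 34.5 and 46 FPKM against 73.7, 74.5 and 79.1. LDA, a debranching enzyme, MEX1, the maltose exporter of the plastid, and the phosphorylase genes PHS1 and PHS2 fell too, as did BAM6. The beta-amylases that rose were BAM1, 1.56-fold, and BAM9, a catalytically inactive relative, at 84.3, 68.4 and 75.6 FPKM in tic-2 and at 20.5, 17.8 and 19.2 FPKM in Col-0. BAM3, the main beta-amylase of the night, was at 200 ± 31.5 and 178 ± 13.5 FPKM and was not called.

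In starch synthesis 3 of 13 genes rose and 1 fell, against 9.71% of all genes in each direction. GBSS1, the amylose synthase, was at 154, 178 and 132 FPKM in tic-2 and at 28.6, 41.4 and 69.2 FPKM in Col-0 (log2 fold change 1.80, SE 0.24, limma adjusted p = 0.000452). SBE2.2 and SS1 rose 1.36-fold and 1.19-fold, calls that ended for SBE2.2 without Col-0 A (adjusted p = 0.074), Col-0 B (0.0569) or tic-2 C (0.0573). For SS1 the call ended under 12 of the 24 alternatives, such as leaving out any of the 3 Col-0 postdusk libraries. QQS, a regulator of starch content, was at 0.628, 0.907 and 0.736 FPKM in tic-2 and at 29.2, 21.9 and 28.7 FPKM in Col-0. It stood at 0.740 ± 0.141 FPKM in tic-2 at predawn as well.

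**Figure D3:**
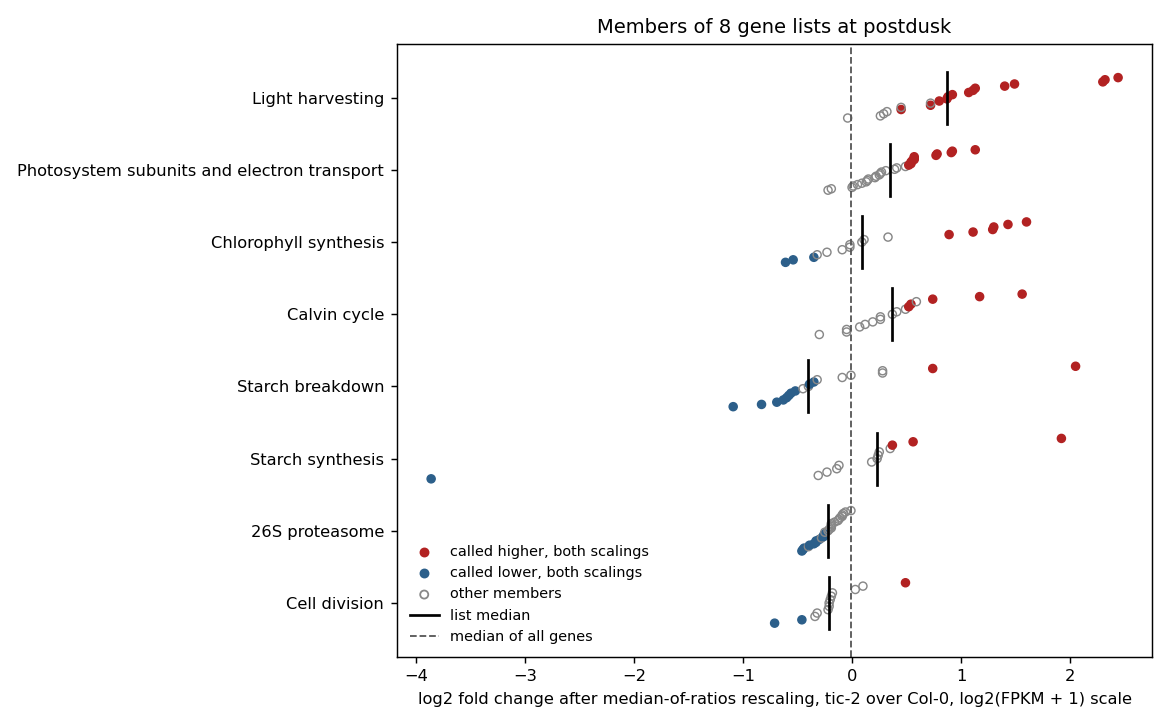
Log2 fold change of single genes in 8 lists at postdusk after median-of-ratios rescaling, tic-2 over Col-0 on the log2(FPKM + 1) scale. Filled points were called under both scalings (red higher, blue lower), open points were not, black bars are list medians and the dashed line is the median of all genes (-0.01). Light harvesting lies to the right with a median of 0.88, starch breakdown to the left with -0.40, and the single point at -3.86 is QQS.

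Genes of sugar starvation, nitrogen use and trehalose phosphate signalling were mostly not called. Of 18 in the sugar list, DIN2 rose, DRM1 and DRM2 fell and 15 were not called, where 9.71% of all genes were called in each direction. At predawn 13 of them were higher in tic-2 on the deposited scale, where 13.1% of all genes were. DRM2 (AT2G33830), a dormancy-associated gene that sugar represses, was at 137, 119 and 180 FPKM in tic-2 and at 462, 338 and 255 FPKM in Col-0. The call of DIN2, 2.15-fold higher, ended without Col-0 B (adjusted p = 0.0685), Col-0 C (0.058) or tic-2 B (0.0647). Of 11 nitrogen genes, NRT1.5, a nitrate transporter of the xylem, rose 2.34-fold, to 24.5, 24.6 and 21 FPKM from 7.44, 10.5 and 11.9.

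Abscisic acid and cold genes went both ways, with 6 of 22 higher and 5 lower. COR413IM1, a chloroplast membrane protein gene, was at 154, 141 and 147 FPKM in tic-2 and at 57.6, 51.8 and 42.3 FPKM in Col-0 (log2 fold change 1.54, SE 0.15, limma adjusted p = 4.04e-05). COR47 and ERD14, dehydrins, rose 2.25-fold and 1.43-fold, with tic-2 C highest for COR47 at 238 FPKM. COR15A rose 2.02-fold while its neighbour COR15B fell, with Col-0 1.87-fold above tic-2. COR27 and AT4G33980 (COR28), cold-induced regulators of the clock, fell, with COR27 at 30.1, 29.8 and 31.7 FPKM in tic-2 and at 61.1, 58.3 and 61.9 FPKM in Col-0. HAB1, a phosphatase that represses abscisic acid signalling, rose 1.95-fold.

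Of 21 jasmonate genes, 5 rose, 3 fell and 13 were not called, and the last included the repressor genes JAZ3, JAZ5 and JAZ10 and the synthesis genes AOS, AOC1, AOC2 and OPR3. The JAZ genes encode repressors of jasmonate response. JAZ9 was at 130, 107 and 215 FPKM in tic-2 and at 45.3, 47.4 and 42.6 FPKM in Col-0, 3.34-fold higher (log2 fold change 1.66, SE 0.22, limma adjusted p = 0.000422), and JAZ6 and JAZ2 rose 2.24-fold and 1.95-fold. The receptor gene COI1 and the bHLH factor gene MYC4 rose 1.27-fold and 1.45-fold. The genes that fell were LOX2, a lipoxygenase of jasmonate synthesis, and the jasmonate-induced genes CORI3 and VSP2. LOX2 was at 221, 315 and 391 FPKM in tic-2 and at 606, 620 and 668 FPKM in Col-0, and VSP2 was at 26.9, 203 and 148 FPKM and at 321, 633 and 524 FPKM.

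Among 12 salicylate defence genes, PAD4 rose and 4 fell. WRKY54, a WRKY factor gene, was at 0.971, 1.2 and 0.931 FPKM in tic-2 and at 6.57, 3.96 and 6.02 FPKM in Col-0. WRKY70, its relative, was at 13.2, 19.7 and 12.8 FPKM in tic-2 and at 135, 36.8 and 75.4 FPKM in Col-0, with a wide spread in Col-0 and no overlap. CBP60G, an activator of salicylate synthesis, had Col-0 3.14-fold above tic-2. PR1, the usual marker of this response, was below the filter.

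Glucosinolates are sulfur compounds of defence, and myrosinases break them down. Of 24 genes 3 rose and 4 fell, against 9.71% of all genes in each direction. The strongest changes were in the breakdown genes. TGG1 and TGG2 encode the myrosinases of the shoot. TGG1 was at 413, 454 and 621 FPKM in tic-2 and at 1376, 1183 and 1219 FPKM in Col-0, and TGG2 was at 24.4, 49.7 and 78.9 FPKM and at 312, 296 and 254 FPKM. ESM1, which modifies the outcome of the breakdown, was at 24.5, 32 and 36.5 FPKM in tic-2 and at 287, 239 and 230 FPKM in Col-0, with Col-0 8.13-fold above tic-2 (log2 fold change -2.99, SE 0.15, limma adjusted p = 2.77e-07). The regulator genes MYB28 and MYB34 rose 1.74-fold and 1.79-fold. Of the synthesis genes, CYP79F2 rose, BCAT3 fell and the others were not called under both scalings. At predawn 16 genes of the list were lower in tic-2 on the deposited scale, where 14.6% of all genes were.

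Flavonoid genes were spread widely among Col-0 libraries. Of 17, 1 rose (C4H) and 1 fell (UF3GT), against 9.71% of all genes in each direction. The call of C4H, 1.37-fold higher, ended without Col-0 A (adjusted p = 0.0555). The call of UF3GT, 2.32-fold higher in Col-0, ended under 6 of the 24 alternatives, with adjusted p between 0.0603 and 0.0889.

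Iron storage and reduction genes rose in 5 of 15 cases, and 0 fell. FER1, a ferritin of the plastid, was at 783, 824 and 961 FPKM in tic-2 and at 214, 297 and 288 FPKM in Col-0, 3.21-fold higher (log2 fold change 1.69, SE 0.15, limma adjusted p = 2.98e-05). FER4, a further ferritin, and the ferric reductases FRO7 and FRO6 rose 2.24-fold, 2.94-fold and 2.38-fold. PYE, a regulator of iron deficiency, rose 1.92-fold. IRT1 and FRO2, the uptake genes of the root, were at 0.0102 and 0.278 FPKM in tic-2 and 0.202 and 0.491 in Col-0.

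Of 8 heat shock genes tested 2 rose, and both had their highest value in tic-2 C. HSP70 (AT3G12580) was at 51.4, 38.2 and 131 FPKM in tic-2 and at 33.1, 21.7 and 34.6 FPKM in Col-0. Its log2 fold change was 1.1 (SE 0.34, limma adjusted p = 0.0309) and 0.59 without tic-2 C, where the call held, and the call ended without Col-0 A (adjusted p = 0.0549), without Col-0 B (0.106) or with the postdusk libraries alone (0.101). HSP101, at 4.5, 4.45 and 10 FPKM in tic-2 and 4.41, 2.48 and 2.88 in Col-0, had a log2 fold change of 0.73 (SE 0.25, adjusted p = 0.0444) that was 0.39 without tic-2 C. Its call ended in 12 of 24 alternatives, among them those without tic-2 C (adjusted p = 0.118), without Col-0 B (0.138) or Col-0 C (0.115), with no filter (0.0697) and with the postdusk libraries alone (0.118), and its adjusted p ranged from 0.0287 to 0.138. The summed level of the 10 heat shock genes was between 946 and 1174 FPKM in tic-2 and between 741 and 874 in Col-0. COR47 and JAZ9, also highest in tic-2 C, kept their calls under every alternative tried.

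Aquaporin genes changed little. Of 18, PIP1;1, PIP2;3 and PIP1;4 rose, 1.57-fold, 1.82-fold and 1.25-fold, and 0 fell, against 9.71% of all genes in each direction. PIP2;3 had a log2 fold change of 0.78 that was 0.50 with array weights. The call of PIP1;4 ended with the postdusk libraries alone (adjusted p = 0.0556) and without Col-0 A (0.0538), Col-0 B (0.0961), tic-2 A (0.0641) or tic-2 B (0.0657).

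In alternative respiration, which bypasses proton pumping in mitochondria, NDA1 stood apart from the other 7 genes tested. NDA1 (AT1G07180), an internal NADH dehydrogenase whose transcript peaks in the morning, was at 35.5, 30.8 and 28.7 FPKM in tic-2 and at 2.35, 2.18 and 2.62 FPKM in Col-0. The 13.3-fold difference (log2 fold change 3.27, SE 0.10, limma adjusted p = 3.13e-09) left no overlap. AOX1A, the alternative oxidase, rose 1.45-fold, and NDB1 fell, with Col-0 1.46-fold above tic-2. AOX1A lies close to TIC on chromosome 3, at 7906521 to 7908746, where TIC starts at 7912905. It was also higher in tic-2 at predawn (log2 fold change 0.56, limma adjusted p = 0.0057).

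Subunits of the 26S proteasome, the protease of ubiquitin-tagged proteins, were lower by a small amount. Of 29 genes 0 rose, 11 fell under both scalings and 23 were lower as deposited, where 19.8% of all genes were lower. The median log2 fold change was -0.35 as deposited and -0.22 after rescaling, against -0.12 and -0.01 over all genes. RPT2A, an ATPase of the regulatory cap, was at 45.5, 44.8 and 44.5 FPKM in tic-2 and at 64.1, 72.2 and 66.4 FPKM in Col-0, and RPN1A, of the same cap, was at 32.7, 30.5 and 34.6 FPKM and at 47.2, 48 and 46 FPKM. PBG1 and PAB1, of the catalytic core, had Col-0 1.49-fold and 1.5-fold above tic-2. On the deposited values the tic-2 libraries lay wholly below Col-0 for 28 of the 29 genes, where 6264 of 19274 genes did so. At predawn 0 of these genes were called by limma in either direction as deposited, when 13.1% of all genes were higher and 14.6% lower.

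Cell division genes included 1 that rose, CYCD3;1, and 2 that fell, of 13, against 9.71% of all genes in each direction. TSO2 and RNR1, subunits of ribonucleotide reductase, were at 17.9 ± 2.21 and 17.5 ± 3.22 FPKM in tic-2 and at 32.5 ± 1.99 and 26.3 ± 1.16 FPKM in Col-0 (limma adjusted p = 0.000238 and 0.00334). The call of CYCD3;1, 1.31-fold higher, ended without Col-0 A (adjusted p = 0.0828), Col-0 B (0.0532) or tic-2 B (0.0663).

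Markers of other tissues were compared for the whole seedlings. Of 9 root markers tested, 0 were called, and the summed level of all 11 was between 962 and 1024 FPKM in tic-2 and between 784 and 1301 in Col-0. BGLU23, the beta-glucosidase of root ER bodies, made up most of both sums, at 932, 962 and 899 FPKM in tic-2 and at 734, 1222 and 798 FPKM in Col-0. Seed storage transcripts were a different case, with 6 of 13 seed markers higher and 0 lower. SESA3, a seed albumin, was at 54.9, 16.3 and 52.6 FPKM in tic-2 and at 0.461, 0.324 and 0.13 FPKM in Col-0. SESA1, a further albumin, was at 45.6, 39.7 and 95 FPKM in tic-2 and at 3.74, 3.68 and 1.06 FPKM in Col-0. CRU2, a cruciferin, was at 11.5, 3.12 and 17.2 FPKM in tic-2 and at 0.0929, 0.183 and 0 FPKM in Col-0. The 3 genes did not overlap between genotypes, although tic-2 B was lowest for each.

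The rest of the seed list did not move in the same way. CRA1, the cruciferin with the highest level in Col-0, was at 63, 52.4 and 77.9 FPKM in tic-2 and at 155, 68.9 and 83 FPKM in Col-0, and CRU3, SESA5, OLEO1, OLEO2, EM1 and EM6 were not called either. SESA2, SESA4 and OLEO4, an oleosin gene, made up the 6 that rose. The summed level of the 13 markers was between 245 and 434 FPKM in tic-2 and between 146 and 350 in Col-0, which overlapped. Seed albumin copies are near identical, so values of single SESA genes are uncertain. The part of seed markers in the other lists was not tested.

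The 12 largest rises and 12 largest falls included genes outside the lists. AT1G75945 was at 29.1, 30.3 and 22.1 FPKM in tic-2 and at 1.86, 0.863 and 0.649 FPKM in Col-0 (log2 fold change 3.76, SE 0.24, limma adjusted p = 2.37e-06). AT2G27420, of the papain protease family, was at 27, 25.1 and 23 FPKM in tic-2 and at 1.08, 1.54 and 2.42 FPKM in Col-0. PAB5, a poly(A)-binding protein gene known from pollen, was at 6.64, 8.37 and 9.14 FPKM in tic-2 and at 0.0981, 0.0772 and 0.0774 FPKM in Col-0. For PAB5 the Col-0 values amounted to a few reads per library, so that its fold depends on the pseudocount, with log2 fold changes between 1.36 and 5.46 over the pseudocounts tried.

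AT3G05945 had the largest fall, at 0.683, 0.493 and 1.2 FPKM in tic-2 and at 35.1, 27 and 45 FPKM in Col-0 (log2 fold change -4.35, SE 0.19, limma adjusted p = 1.28e-07). AT5G24240 and AT3G11960 were at a few reads in tic-2, as given with the genotype labels. AT5G64110, a peroxidase gene, and AT2G43590, of the chitinase family, had Col-0 8.93-fold and 8.95-fold above tic-2. THI2.2, a thionin gene, was at 0.583, 0.287 and 0.0508 FPKM in tic-2 and at 11.1, 8.19 and 5.78 FPKM in Col-0. CYP89A9, which acts in chlorophyll breakdown, had Col-0 8.30-fold above tic-2. Of the 12 falls, 10 were also lower at predawn, and the exceptions were AT3G22235 and PCC1.

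**Figure D4:**
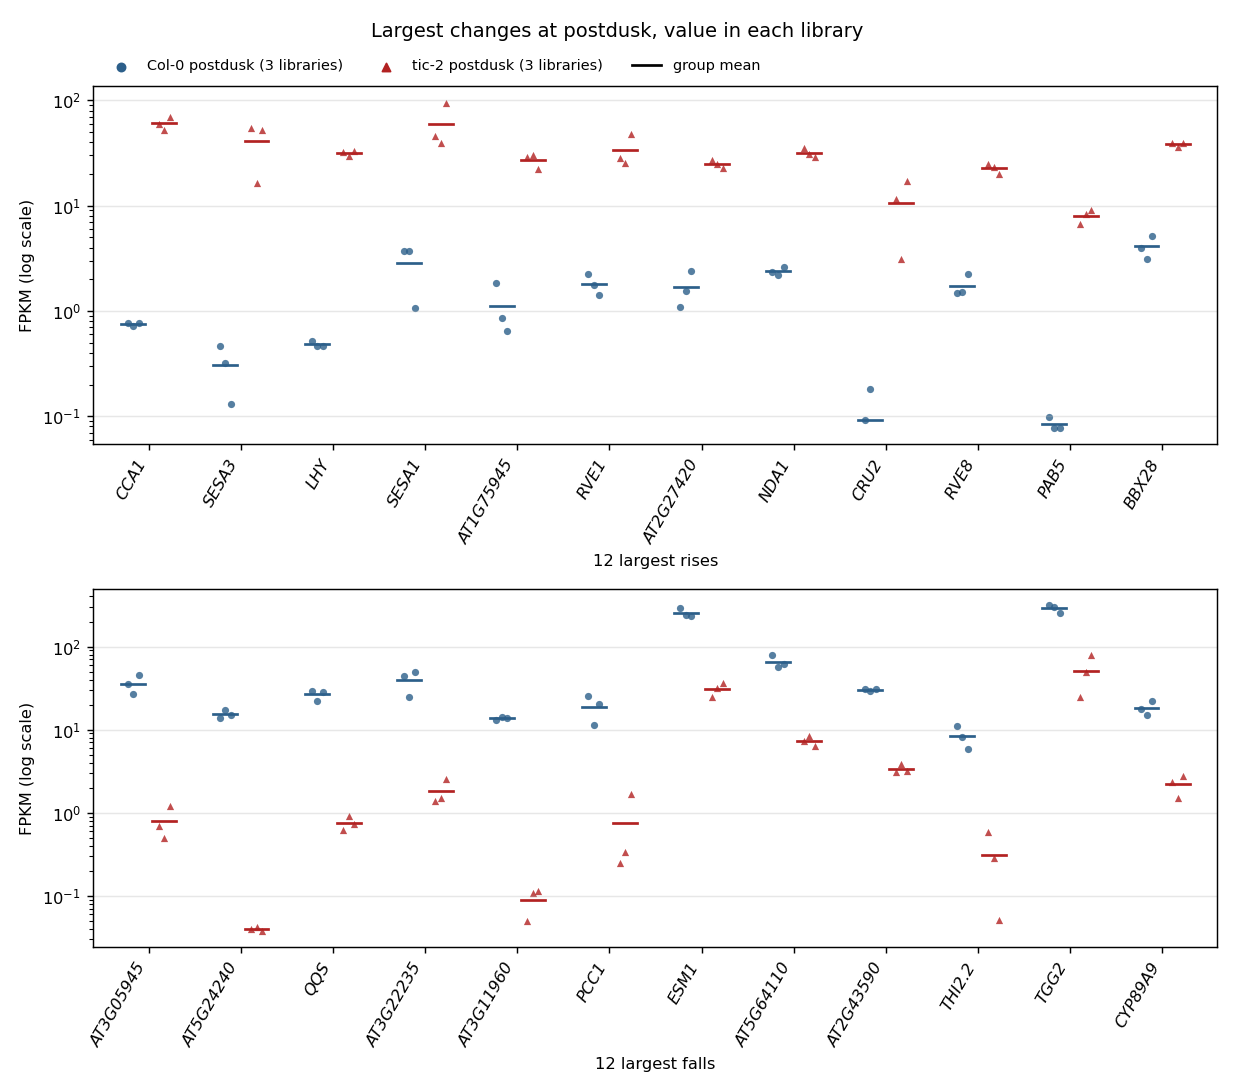
FPKM per library on a log axis of the 12 largest rises (upper panel) and 12 largest falls (lower panel) at postdusk, Col-0 as circles and tic-2 as triangles with bars at group means. Genes were taken only where the genotypes did not overlap, so the lack of overlap was set by the choice. The Col-0 library in which CRU2 was at 0 cannot be drawn on a log axis.

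AT3G22235 and PCC1 lie 57.1 and 66.1 kb from TIC on chromosome 3. AT3G22235 was at 1.4, 1.51 and 2.54 FPKM in tic-2 and at 43.9, 24.7 and 49.1 FPKM in Col-0, and PCC1, a gene of the salicylate list, was at 0.248, 0.336 and 1.67 FPKM and at 25.2, 11.4 and 20.2 FPKM. At predawn AT3G22235 was at 2.35 ± 1.53 FPKM in tic-2 and 2.05 ± 1.41 in Col-0, and PCC1 at 0.586 ± 0.852 and 0.277 ± 0.323. Both were thus low in both genotypes at that time.

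Within 500 kb of TIC 175 genes were tested, of which 26 rose and 18 fell. Their share of 25.1% (exact 95% interval 18.9% to 32.2%, counting error only) stood beside 19.4% of all genes, with 23.5% within 200 kb and 21.4% within 1000 kb. A change of at least 1 on the log2 scale was seen for 12 of the 175 (6.86%), against 3.36% of all genes. Of the 11 among them called under both scalings, 5 were lower and 6 higher. DXPS1, 336 kb away and related to the first enzyme of the plastid isoprenoid pathway, was at 2.71, 9.72 and 8.47 FPKM in tic-2 and at 0.146, 0.266 and 0.452 FPKM in Col-0. BGLU19 and AT3G21380, 385 and 382 kb away, had Col-0 7.42-fold and 6.85-fold above tic-2, and ELIP1, at 165 kb, and the B-box genes BBX31 and BBX32 were among those that rose.

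Promoter letters were counted in the 250 bases before the start of 18693 tested genes, on both strands. The G-box CACGTG was in 7.68% of all promoters, in 10.8% of those of genes that rose (exact 95% interval 9.4% to 12.3%) and in 6.44% of those of genes that fell. For rises of at least 1 on the log2 scale, a split added after the data were seen, the share was 15.9% (interval 12.2% to 20.2%), and for falls of that size 8.86% (interval 5.57% to 13.2%). Of the 16 morning clock promoters, 9 held a G-box, 8 of them of genes that rose, among them CCA1, LHY, RVE1, PRR9 and PRR7. In the seed list 7 of 13 promoters held one.

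The evening element AAAATATCT was in 2.49% of all promoters, in 2.44% for genes that rose and in 3.47% for genes that fell, and in 6.33% for falls of at least 1 on the log2 scale (interval 3.59% to 10.2%), with 2.31% for rises of that size. It was in 5 of 12 evening clock promoters, of which BOA rose, FKF1 fell and the others were not called. Among the listed genes outside the evening clock, GRP7, COR27 and PWD, which fell, held it, and so did RVE7, BBX24, COL2 and PORB, which rose, while GRP8, CAT3 and other holders were not called. The CCA1-binding site AAAAATCT was in 6.8% of all promoters, 7.15% for rises and 6.61% for falls, but in 2.53% for falls of at least 1 on the log2 scale (interval 0.935% to 5.43%) and 6.94% for rises of that size. The LUX-binding site, GATTCG or GATACG, was in 12.6%, 12.5% and 12.9%, with 11.4% for the large falls and 14.7% for the large rises. The I-box GATAAG was in 12.4%, 14.5% and 12.6%, with 17.7% for the large falls (interval 13.1% to 23.2%) and 14.5% for the large rises. The telo-box AAACCCTA, known from ribosomal protein genes, was in 3.56% of all promoters, 1.62% for rises and 4.11% for falls, with 1.16% for the large rises and 3.38% for the large falls. For every motif the split at 1 on the log2 scale was added after the data were seen. No adjustment was made for the number of motifs and groups compared. A match describes the letters and does not show that a factor binds there.

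The difference between genotypes depended on the time of harvest. The genotype effect at postdusk differed from that at predawn for 3060 genes (15.9%) by the interaction term of the same limma fit. As deposited, without the requirement of both scalings, calls at the 2 times went in opposite directions for 664 genes (3.45%). These were 413 higher at postdusk and lower at predawn and 251 the reverse. In the same direction and on the same scale, 719 genes were higher and 963 lower at both. The 2 contrasts use different libraries.

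**Figure D5:**
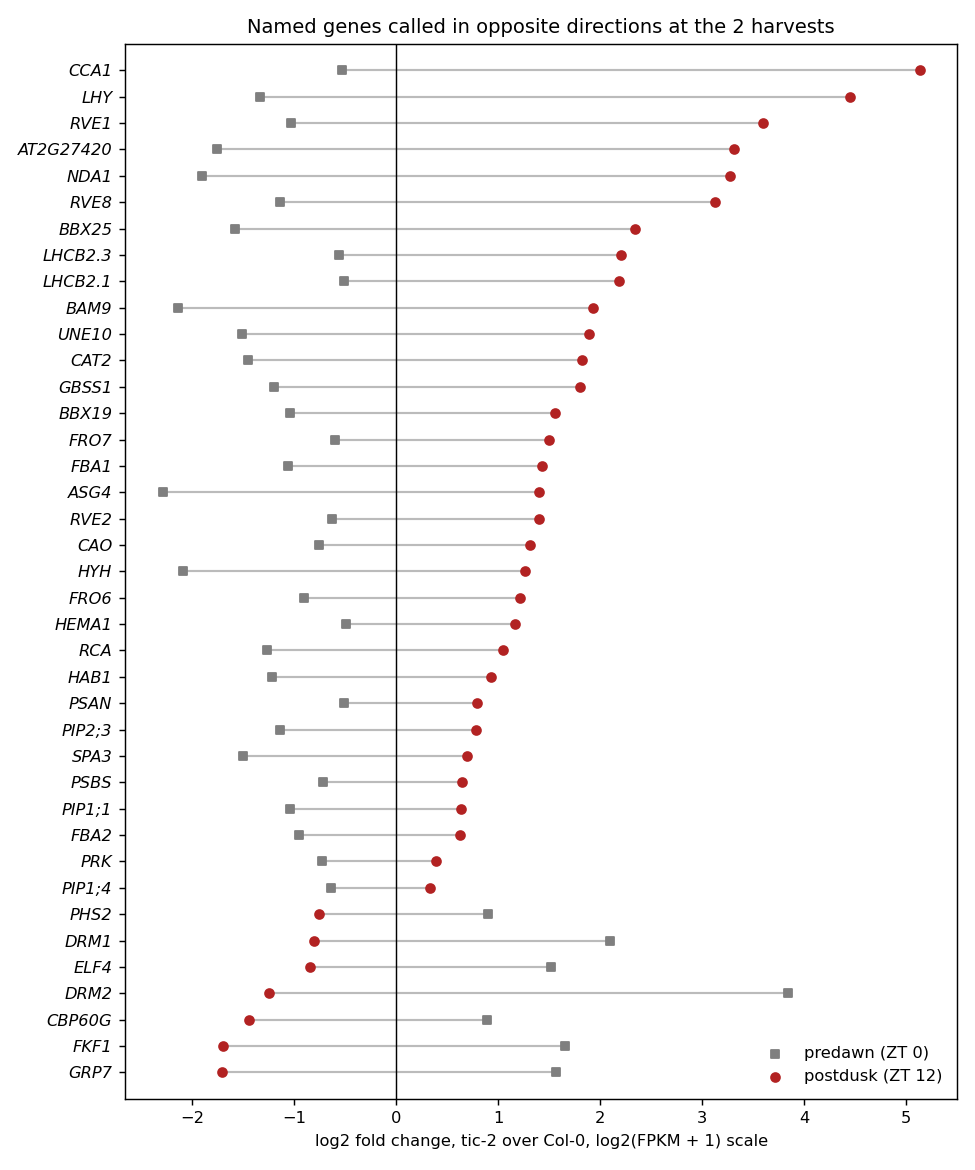
Log2 fold change, tic-2 over Col-0 on the log2(FPKM + 1) scale, of 39 named genes at predawn (grey squares) and postdusk (red circles). The 32 genes at the top were lower in tic-2 at predawn and higher at postdusk, with CCA1 going from -0.53 to 5.13, and the 7 at the bottom went the other way, with DRM2 going from 3.84 to -1.25.

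For the genes called in opposite directions the levels at both times are given by example. CCA1 was at 180 ± 20.5 FPKM in tic-2 at predawn and 60.6 ± 8.71 at postdusk, and at 259 ± 21.2 and 0.748 ± 0.0307 in Col-0. Its level was lower at postdusk than at predawn in both genotypes, by far more in Col-0. NDA1 was at 15.9 ± 1.91 and 31.7 ± 3.47 FPKM in tic-2, and at 62.3 ± 1.05 and 2.38 ± 0.222 in Col-0. FBA1 was at 479 ± 82.2 and 1000 ± 16.4 FPKM in tic-2, and at 993 ± 72.7 and 371 ± 37.5 in Col-0. By their means NDA1 and FBA1 were higher at postdusk than at predawn in tic-2 and lower in Col-0. GRP7, of the evening, was at 484 ± 65.8 and 796 ± 183 FPKM in tic-2, and at 163 ± 20.4 and 2566 ± 265 in Col-0, higher at postdusk in both. The spacing was not narrower in tic-2 for every gene, since FBA2 was at 741 and 1959 FPKM in tic-2 and at 1425 and 1276 in Col-0 by its means. LHCB2.1 was at 1549 ± 184 and 336 ± 44 FPKM in tic-2 and at 2197 ± 32 and 73.6 ± 11.5 in Col-0.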

How the data were processed

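RNA sequencing of 12 libraries was compared, and the 6 postdusk libraries gave the contrast reported. The authors deposited 1 table of FPKM values, made with TopHat, TopHat2 and edgeR on TAIR10 per the submitters' processing notes. Of the counting program, strand setting and filters, each was not given in the sources used here. The description fields of the 3 Col-0 postdusk and the 3 tic-2 predawn samples carry each other's column names, so groups were taken from column names and titles. Genes at 1 FPKM or more in at least 3 of 12 libraries were kept (19274 of 25729). limma 3.58.1 in R 4.3.3 was fitted to log2(FPKM + 1) of all 12 libraries with group means and a mean-variance trend, with Benjamini-Hochberg adjustment over all genes kept. The fit had 8 residual degrees of freedom. Of the values, 99.4% to 99.5% were whole reads within 0.05 reads; no count test was run, and limma on log values is the test throughout. Columns were rescaled by median-of-ratios for the second call. Intervals cover counting error only.

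Identifiers were matched to RefSeq TAIR10.1 for 25453 of 25729 genes. Of the 31 lists, 514 genes were tested, 24 were below the filter and 7 were not analysed here. The rule for named genes took TIC, clock genes, the 12 largest rises and falls with a mean of at least 5 FPKM, and up to 4 called genes per list. Those called in opposite directions at the 2 times were marked among these named genes only. Other list genes with opposite calls, such as COL2, BBX31 and BBX32, are therefore not counted with them. Members and lists were chosen with earlier results of these data known. Alternatives were other scalings, pseudocounts, filters, array weights, no trend, the postdusk libraries alone, a replicate block and leaving out libraries. The scripts were tested on simulated data. Python 3.11.15 with pandas 2.3.3, numpy 2.4.6, scipy 1.17.1 and matplotlib 3.10.9 was used for tables and figures.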

Additional observations from a re-analysis of the deposited data

Results flagged for a closer look

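The genotype effect at postdusk differed from that at predawn by the limma interaction test for 39 named genes that were called in opposite directions at the 2 times. Differences are given as the log2 fold change at postdusk minus that at predawn, and the largest adjusted p among them was 0.000918 (FRO6). These genes were picked out of the named genes because their calls were opposite, so the count is not independent support for a pattern.

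In the morning clock the difference was 5.66 for CCA1, 5.79 for LHY, 4.62 for RVE1, 2.03 for RVE2, 3.69 for ASG4 and 4.25 for RVE8. In the evening clock it was -2.38 for ELF4 and -3.35 for FKF1. Among genes with large changes or of clock output it was 5.07 for AT2G27420, 5.17 for NDA1, 3.27 for CAT2 and -3.28 for GRP7.

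Light signalling genes had differences of 2.59 for BBX19, 3.92 for BBX25, 3.35 for HYH, 2.18 for SPA3 and 3.4 for UNE10. Photosynthesis genes had 2.69 for LHCB2.1, 2.76 for LHCB2.3, 1.3 for PSAN, 1.37 for PSBS, 1.65 for HEMA1, 2.07 for CAO, 2.49 for FBA1, 2.31 for RCA, 1.56 for FBA2 and 1.12 for PRK. In starch metabolism the values were 4.07 for BAM9, -1.66 for PHS2 and 3.0 for GBSS1. The remaining genes were DRM2 at -5.09, DRM1 at -2.91, HAB1 at 2.15, CBP60G at -2.33, FRO7 at 2.1, FRO6 at 2.12, PIP1;1 at 1.67, PIP2;3 at 1.93 and PIP1;4 at 0.96.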

How the results depend on the processing

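Of 138 named genes, 126 were called, of which 113 kept call and direction under the alternatives run and 13 lost the call under at least 1. Apart from TIC and the clock genes, named genes were taken only if called under both scalings. These counts therefore do not measure how stable the calls of all genes are. The genes called numbered 10443 with array weights (3305 higher, 7138 lower) and 3874 to 6614 when single libraries were left out, with 1416 to 2113 higher and 2458 to 4501 lower. Without both tic-2 libraries lettered C they numbered 6548. Lower calls were 1871 after median-of-ratios rescaling, 2275 after quantile normalization and 2283 after upper-quartile rescaling. The interaction was called for 7954 genes with array weights and for 2201 to 3603 without single libraries. The median log2 fold change was -0.01 after median-of-ratios, -0.04 after quantile and -0.05 after upper-quartile scaling, -0.08 with a pseudocount of 5, -0.06 without the filter, and -0.14 to -0.11 without single libraries. Directions turned, for genes not called, in PRR5 (0.01 without tic-2 postdusk B, in a range from -0.35 without tic-2 postdusk C), LUX (-0.10 without Col-0 postdusk B, to 0.13 without Col-0 postdusk C) and CHE (-0.05, -0.02 and -0.00 without Col-0 postdusk B, tic-2 postdusk A and tic-2 postdusk B, to 0.30 without tic-2 postdusk C). With the window extended to 50 bases after the start, the share of promoters was 3.04% (all) and 4.6% (lower) for the evening element, 8.12% and 8.23% for the CCA1-binding site, 9.19% (all) and 13% (higher) for the G-box, and 5.52% (all) and 6.17% (lower) for the telo-box. For all, higher and lower genes it was 15.1%, 15.1% and 15.7% for the LUX-binding site and 14.8%, 17.4% and 14.8% for the I-box. The longer window contains the shorter one, so its shares cannot be lower. The cause of the other shifts was not tested. Library letters did not pair the postdusk samples (correlations of deviations 0.030, 0.079 and -0.093), and with letters as a replicate block 5324 genes were called (1806 higher, 3518 lower), the interaction for 2789, with a median of -0.12.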
